A study of Mus musculus with 15 samples.

Results

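The clustered protocadherin genes were followed through the histone marks and RNA of mouse embryonic stem cells. Members were the gene symbols that begin with Pcdha, Pcdhac, Pcdhb, Pcdhga, Pcdhgb or Pcdhgc followed by a letter or number and that lie on chromosome 18, and 59 of the 22035 symbols of the gene table met this rule. They comprised 14 alpha members (Pcdha1 to Pcdha12, Pcdhac1 and Pcdhac2), 22 beta members (Pcdhb1 to Pcdhb22) and 22 gamma members of the A, B and C types. The remaining member, Pcdha4-g, is listed from the start of Pcdha4 to near the end of the gamma part. On mm9 the members spanned chromosome 18 from 37089936 to 38001528, with the alpha part at 37089936 to 37347312, the beta part at 37424652 to 37681072 and the gamma part at 37821600 to 38001528. All members lie on the plus strand, and the span held 44 of the 98085 bins of 2 kb in which the marks were measured.

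All libraries came from TT2, a male wildtype line of embryonic stem cells from the inner cell mass of the blastocyst (C57BL/6 x CBA), sorted into known numbers of cells. Chromatin immunoprecipitation with sequencing (ChIP-seq) was run for H3K9me3, a mark of heterochromatin, once each with 1000000, 100000 and 10000 cells, and with 1000 cells in triplicate (a to c). H3K27me3, the mark laid down by Polycomb complexes, was taken from 100000, 10000 and 1000 cells, and H3K4me3, a mark of active promoters, at 100000, 10000 and 5000 cells. Total histone H3 (panH3), which follows nucleosome density, was measured in 2 libraries of 1000 cells (a and b), and RNA in 1 library of 1000 cells. The groups share strain, sex and genotype and differ in antibody and cell number. The labels do not say whether libraries came from separate cultures of this 1 line, so that p-values measure the spread between these libraries, which may be technical.

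Clustered protocadherins are cell adhesion proteins of the cadherin superfamily, best known from the nervous system, where each neuron displays its own combination and uses it to tell its own branches from those of other cells. Each alpha and gamma gene has a variable first exon with its own promoter, which is spliced to constant exons shared by the whole part, whereas beta genes consist of a single exon. Most variable promoters are chosen at random in a neuron with the help of CTCF and cohesin, while the C-type members Pcdhac1, Pcdhac2, Pcdhgc3, Pcdhgc4 and Pcdhgc5 are expressed more regularly.

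Values are read densities (RPKM, reads per kilobase of sequence and 1000000 reads) as the authors deposited them. Depth, recovered from the steps between values, lay between 13.015 and 45.5 M reads (M for 1000000) for the bins, and was 16.6, 1.07 and 1.86 M reads for H3K4me3 at 100000, 10000 and 5000 cells. As markers of the labelled cell type, all 12 pluripotency genes listed were at 8.35 RPKM of RNA or more (median 63.7 RPKM), led by Zfp42 at 221.81 RPKM. Of 12 fibroblast markers 2 reached 1 RPKM (Fbln1 at 3.84 and Thy1 at 1.79) and 6 were listed at 0, and of 11 neuronal markers 9 reached 1 RPKM, with Stmn2 at 71.99 and Tubb3 at 25.66 RPKM and Dcx at 0. Of all genes 49.8% reached 1 RPKM. RNA reads appear to be counted over the whole gene and divided by exon length, as set out below. What this adds to the values of long marker genes was not tested. The neuronal markers' part in the protocadherin values below was not tested.

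H3K27me3 at the start sites of the members was highest in the alpha part, and at 100000 and 10000 cells it was lower in the gamma part than in the beta part. Within 1 kb of the start site, the median member stood at 1.15, 1.22 and 0.92 RPKM at 100000, 10000 and 1000 cells, against 0.28, 0.28 and 0.31 RPKM for the median of all genes. At 100000 cells 39 of 59 members reached 1 RPKM, where 9.55% of all genes did. They were 11 of 14 alpha members, 18 of 22 beta members, 9 of 22 gamma members and Pcdha4-g. At 1000 cells 21 of 59 members reached 1 RPKM, against 5.24% of all genes, namely 8 of 14 alpha members, 6 of 22 in each of the beta and gamma parts and Pcdha4-g. With 1 library per cell number these levels carry no test. Starts of neighbouring members lie at least 3.78 kb apart, so that only the windows of Pcdha4 and Pcdha4-g overlap.

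Among alpha members H3K27me3 at 100000 and 10000 cells was highest at Pcdhac2, the last variable gene of the part, at 2.61 and 2.75 RPKM, but at 1000 cells it was among the lowest, at 0.82 RPKM. Pcdha9 stood at 2.57, 1.79 and 1.99 RPKM at 100000, 10000 and 1000 cells and was the highest at 1000 cells. Pcdha11 stood at 2.29, 2.36 and 1.08 RPKM, and Pcdha5 at 2.26, 1.74 and 1.53 RPKM. The other C-type alpha member, Pcdhac1, lay in the same range at 1.90, 2.42 and 1.32 RPKM. Between Pcdha5 and Pcdha9 the level dropped at 3 neighbouring genes. Pcdha6 stood at 0.69, 0.96 and 0.53 RPKM, Pcdha8 at 0.83, 0.89 and 0.70 RPKM and Pcdha7 at 0.87, 0.86 and 0.60 RPKM, so these 3 were the lowest alpha members in each library. The alpha median was 1.88 RPKM at 100000 cells, 1.76 at 10000 and 1.12 at 1000.

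The beta members were lower and closer to each other, with medians of 1.20, 1.25 and 0.905 RPKM at 100000, 10000 and 1000 cells. The highest values at 100000 cells sat together at the end of the part that faces the gamma genes. Pcdhb20 stood at 2.12, 1.70 and 1.17 RPKM, and its neighbours Pcdhb19 and Pcdhb21 at 1.89 and 1.69 RPKM at 100000 cells. Pcdhb17 followed at 1.64, 1.58 and 1.07 RPKM. The lowest beta members at 100000 cells were Pcdhb9, at 0.70, 0.71 and 0.33 RPKM in the 3 libraries, and Pcdhb16, at 0.70, 0.89 and 0.66 RPKM, and Pcdhb9 was the lowest in the other libraries too.

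Gamma members had medians of 0.880, 0.860 and 0.860 RPKM in the same order of libraries, with the values of single genes between 0.43 and 1.5 RPKM at 100000 cells. The highest in that library were Pcdhga6 at 1.5, Pcdhgb6 at 1.45, Pcdhga4 at 1.44 and Pcdhga9 at 1.40 RPKM. The level was low at the far end of the part. Pcdhga12 stood at 0.54, 0.44 and 0.51 RPKM, and the C-type gamma members Pcdhgc3, Pcdhgc4 and Pcdhgc5 at 0.61, 0.82 and 0.43 RPKM at 100000 cells. None of the 3 C-type gamma members reached 1 RPKM in any of the 3 libraries, whereas both C-type alpha members did at 100000 and 10000 cells. Gamma A members had a median of 0.985 RPKM and gamma B members one of 0.960 RPKM at 100000 cells.

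**Figure D1:**
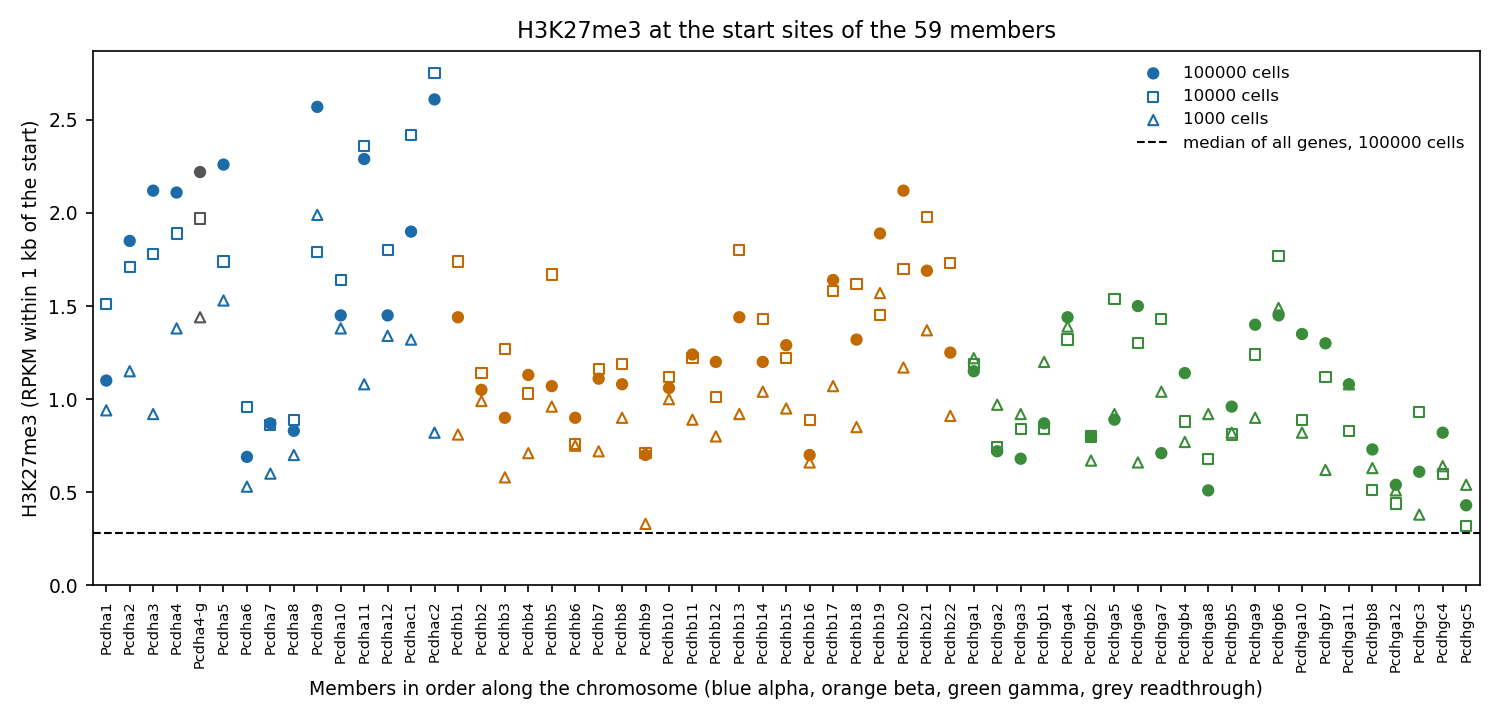
H3K27me3 in RPKM within 1 kb of the start site (vertical axis) of each of the 59 members in order along the chromosome (horizontal axis), with 1 point per library at 100000 cells (filled circles), 10000 cells (squares) and 1000 cells (triangles). The alpha members reach 2.61 RPKM at 100000 cells with a dip at Pcdha6 to Pcdha8, the beta members cluster around 1.20 RPKM, and the last gamma members come down towards the dashed median of all genes at 0.28 RPKM.

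H3K27me3 at alpha and beta start sites was lower in the library of 1000 cells than in that of 100000 cells. All 14 alpha and all 22 beta members were lower at 1000 than at 100000 cells, with a median log2 difference of -0.48 for alpha and -0.43 for beta, while 12 of 22 gamma members were lower, with a median of -0.06 (log2 of RPKM + 0.1). Of all genes 46.5% were lower at 1000 cells, with a median difference of 0, so the gamma share was near that of all genes. Pcdhac2 showed the largest difference of any member, -1.56, followed by Pcdha3 at -1.12 and Pcdhga6 at -1.07. A level at least 1.5-fold lower was found in 14 of 59 members, a larger share than the 15.2% of all genes, most of which had little H3K27me3. Among the 1856 genes whose average over these libraries was 1 RPKM or more, 92.0% were lower at 1000 cells and the median difference was -0.60, beyond the medians of all 3 parts. The order of members was kept in part, with a Spearman correlation over the 59 members of 0.84 between 100000 and 10000 cells and of 0.63 between 100000 and 1000 cells.

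H3K27me3 was also measured in the 2 kb bins, a separate table of positions described by its authors as random. There it was raised in all 3 parts and low in the bins measured on both sides of the cluster. In the 44 bins of the span, 26 reached 1 RPKM at 100000 cells, against 4.47% of all bins. Bins that touched a member's start site (within 1 kb) reached it in 15 of 16 cases, and bins away from start sites in 11 of 28. The mean over the 11 alpha bins was 1.85, 1.86 and 1.18 RPKM at 100000, 10000 and 1000 cells, over the 15 beta bins 1.06, 1.13 and 0.789 RPKM, and over the 10 gamma bins 1.12, 1.09 and 0.782 RPKM. The alpha mean rested on few strong bins, since the medians over bins at 100000 cells were 1.25, 1.27 and 1.11 RPKM in alpha, beta and gamma. All bins together had means of 0.408, 0.414 and 0.406 RPKM. The highest bin, at 37114001 to 37116000 just behind the start of Pcdha4, stood at 3.74, 3.73 and 2.03 RPKM. Within 100 kb on either side of the cluster no bin reached 1 RPKM, with 0.253 RPKM on average in 3 bins before Pcdha1 and 0.130 RPKM in 7 bins behind the gamma part, where Diap1 lies. Inside the gamma part the bins at 37936001 and 37946001 were already at 0.33 and 0.23 RPKM, and the bin at 37948001 was at 0.74 RPKM. The sampled bins therefore do not place the exact end of the mark on either side.

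H3K9me3 was above panH3 in a large share of the cluster, but in patches, and these lay in all 3 parts. Across 93575 tested bins, limma (Benjamini-Hochberg adjusted) placed 15.2% of bins higher and 24.7% lower for H3K9me3 than for panH3 at 1000 cells. In the span 19 of 44 bins (43.2%) were higher and 2 lower. By part, the higher bins were 5 of 11 in alpha, 5 of 15 in beta and 6 of 10 in gamma, with 2 of 5 in the gap between alpha and beta and 1 of 3 in the gap between beta and gamma. Among all bins that touch a gene, 7.19% were higher and 45.6% lower. Without the library panH3 b, 12 bins of the span were higher and 1 lower, and centring each library on its median gave 24 higher and 1 lower, with 20312 higher and 18564 lower in place of 14224 and 23158 over all bins. The median log2 difference over all bins was -0.10.

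Mean H3K9me3 over the alpha bins was 0.599 ± 0.0066 RPKM (SD, n = 3), and mean panH3 was 0.393 ± 0.031 RPKM (SD, n = 2). Single libraries had 0.601 (a), 0.605 (b) and 0.592 (c) RPKM, above both panH3 libraries at 0.371 and 0.415 RPKM. In the beta bins H3K9me3 was 0.687, 0.631 and 0.561 RPKM, with panH3 at 0.342 and 0.387 RPKM. In the gamma bins it was 0.883, 0.676 and 0.623 RPKM, with panH3 at 0.450 and 0.439 RPKM, so that the marks did not overlap in any of the parts. The difference in mean log2(RPKM + 0.1) was 0.44 ± 0.066 (SE) for alpha, 0.46 ± 0.082 for beta and 0.46 ± 0.13 for gamma. An exact two-sided permutation test over the 5 libraries gave p = 0.2 for each, the smallest value that 3 against 2 libraries allow. Over the 15 beta bins the median of the difference per bin was 0.35, and the difference between the 2 marks' medians over bins was 0.12. At the 6 beta bins with a start site the mean was 0.05, where H3K9me3 was at 0.622, 0.475 and 0.333 RPKM and panH3 at 0.400 and 0.442 RPKM.

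**Figure D2:**
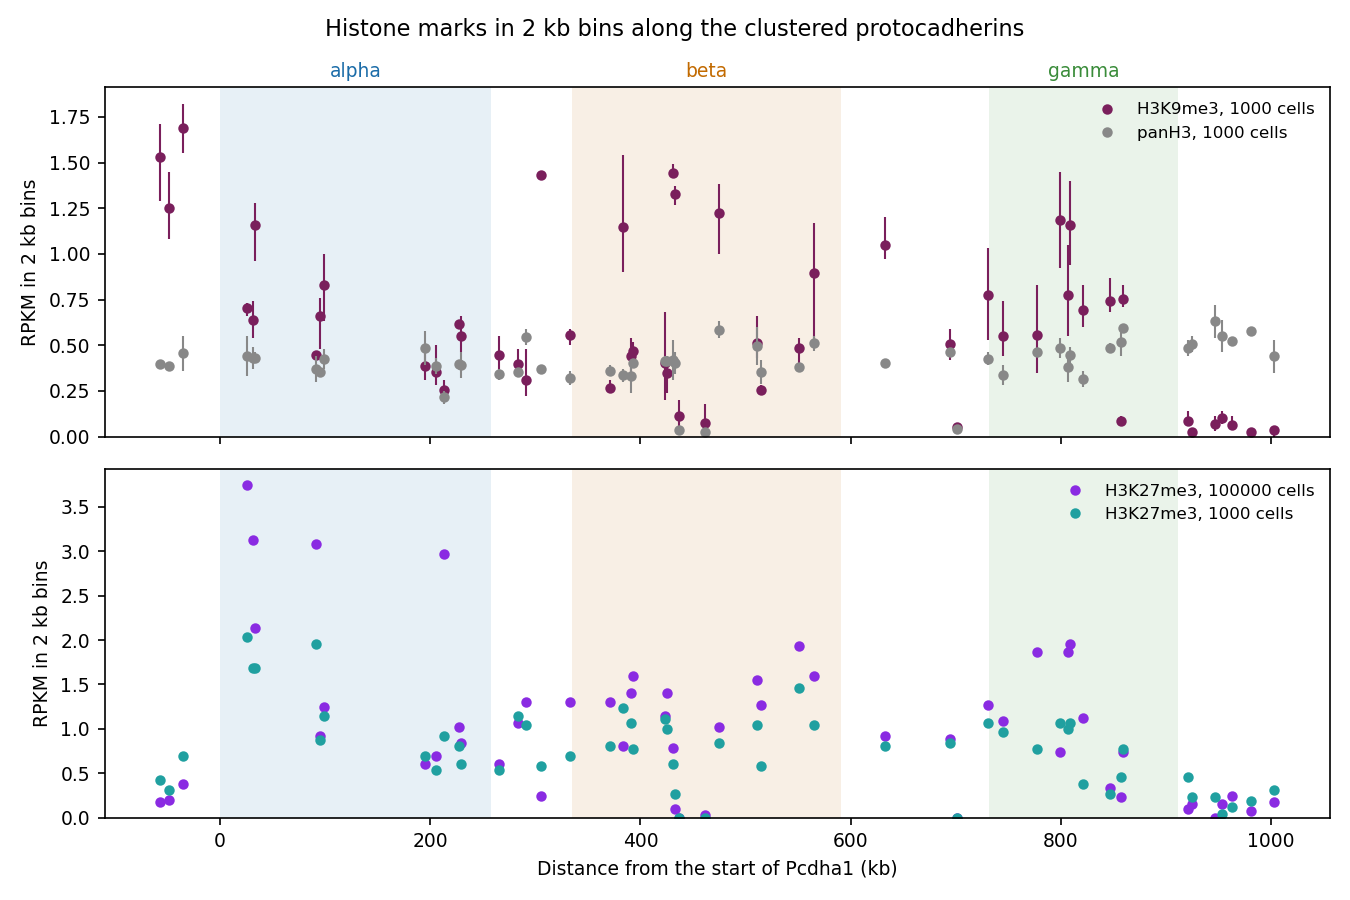
RPKM in each 2 kb bin (vertical axes) against the distance from the start of Pcdha1 in kb (horizontal axis), with H3K9me3 (3 libraries) and panH3 (2 libraries) at 1000 cells above, and H3K27me3 at 100000 and 1000 cells (1 library each) below. Points are means, lines run from the lowest to the highest library, shading marks the alpha, beta and gamma parts, and bins outside the shading lie in the gaps or within 100 kb of the cluster. H3K9me3 rises in isolated bins up to 1.44 RPKM within the span and drops to 0.0576 RPKM on average behind the gamma part, and H3K27me3 peaks at 3.74 RPKM in the alpha part.

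The 4 bins in which H3K9me3 exceeded panH3 the most lay between genes. The bin at 37394001 to 37396000, between the alpha and beta parts, held 1.42, 1.43 and 1.45 RPKM in a, b and c, with panH3 at 0.37 in both libraries, a log2 difference of 1.71 ± 0.17 (SE, limma adjusted p = 2.2e-08). In the beta part, the neighbouring bins at 37520001 and 37522001, behind Pcdhb8, reached 1.44 ± 0.040 and 1.33 ± 0.051 RPKM (SD, n = 3), with log2 differences of 1.60 and 1.52. The bin at 37472001, between Pcdhb4 and Pcdhb5, held 1.54, 1.00 and 0.90 RPKM with a log2 difference of 1.49. A further beta bin at 37564001, behind Pcdhb9, held 1.00, 1.29 and 1.38 RPKM with a log2 difference of 0.94. All of these were above both panH3 libraries, and all kept their call in each of the 12 refits.

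In the alpha part the highest H3K9me3 bin, at 37122001 behind the start of Pcdha5, held 1.28, 0.96 and 1.23 RPKM with a log2 difference of 1.24. It also carried 2.14 RPKM of H3K27me3 at 100000 cells. The other 4 alpha calls were smaller, at log2 differences of 0.53 to 0.81, and each lost its call in at least 1 refit that left out a library. The bin at the start of Pcdhac2 was not called (0.31, 0.20 and 0.26 RPKM, against panH3 of 0.215 ± 0.049, SD, n = 2), although its H3K27me3 was 2.97 RPKM.

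In the gamma part 4 of the 6 higher bins touched start sites, a share near that of all gamma bins, where 6 of 10 did. Over the whole span 6 of 16 start-site bins were higher and 13 of 28 bins away from start sites. The bin at Pcdhgb5 held 1.45, 0.92 and 1.18 RPKM with a log2 difference of 1.12, and the bin at Pcdhgb7 held 0.83, 0.60 and 0.64 RPKM with one of 0.93. The bin at Pcdhga9 (0.85) lost its call without the library panH3 a, the bin at Pcdhga1 (0.70) lost it without panH3 b, and both lost it with no filter on low bins. The bin at 37898001, behind Pcdhga9, held 1.40, 1.13 and 0.94 RPKM with a log2 difference of 1.19 and, at 1.96 RPKM, the highest H3K27me3 of the gamma bins. The lower bin of this part, at 37946001 to 37948000 in the stretch of 40.8 kb between the starts of Pcdhga12 and Pcdhgc3, held 0.11, 0.06 and 0.09 RPKM against panH3 of 0.515 ± 0.11, a log2 difference of -1.72 ± 0.26 (SE, limma adjusted p = 8.4e-06). The next bin, at 37948001, held 0.71, 0.72 and 0.83 RPKM, so the low stretch ended there on that side. The nearest measured bin before the low bin, at 37936001, held 0.68, 0.87 and 0.68 RPKM, and the sequence between these 2 bins was not measured. The second lower bin, at 37380001 in the gap between alpha and beta (0.48, 0.23 and 0.22 RPKM), lost its call in 7 of the 12 refits.

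Both sides of the cluster differed sharply from each other. All 3 bins within 100 kb before Pcdha1 were higher in H3K9me3 (1.49 ± 0.12 RPKM, SD over the 3 libraries of 1000 cells, with panH3 at 0.412 ± 0.035), and all 7 bins behind the gamma part were lower (0.0576 ± 0.0054 RPKM, with panH3 at 0.531 ± 0.021), and centring left these calls in place. Diap1, a regulator of actin filaments that fills the far side, had RNA of 19.99 RPKM. Within the span, H3K9me3 (mean of 6 libraries) and H3K27me3 at 100000 cells had a Spearman correlation over the 44 bins of 0.066, and of -0.15 over the 41 bins with panH3 of at least 0.1 RPKM, where all bins with that panH3 gave 0.45. Within parts it was 0.37 over 11 alpha bins, -0.52 over 13 beta bins and 0.41 over 10 gamma bins. The bins of a library share its depth and scaling.

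The parts were then compared with each other in each of the 6 H3K9me3 libraries. The gamma bins exceeded the beta bins in 6 of 6 libraries, by 0.45 ± 0.25 in mean log2(RPKM + 0.1) (SD, n = 6), and the alpha bins in 6 of 6 libraries, by 0.25 ± 0.22. An exact sign-flip permutation test (two-sided) gave p = 0.03125 for each, the smallest that 6 libraries allow, and 0.0469 after adjustment over the 3 pairs. Beta was below alpha in 5 of 6 libraries, by -0.20 ± 0.24 (exact p = 0.0625), but in mean RPKM over bins beta was above alpha in 4 of 6 libraries, with means over the libraries of 0.629 and 0.617 RPKM. The panH3 libraries a and b showed differences of 0.41 and 0.27 between gamma and beta and of 0.22 and 0.08 between gamma and alpha. With panH3 subtracted in every bin, the differences were 0.11 and 0.11 and neither was called (adjusted p = 0.516, exact). The calls were also lost with the median over bins, at 0.69 and 0.39, and without bins of panH3 under 0.1 RPKM, at 0.18 and 0.25 (adjusted p = 0.0938 in each case, exact), and with any 1 library left out, where 5 libraries cannot reach 0.05. Without those low bins beta stood above alpha, by 0.08, and at start-site bins by 0.02. In gamma bins the 3 libraries of 1000 cells and those of 100000 and 10000 cells ranged from 0.623 to 0.983 RPKM, and the library of 1000000 cells was the lowest at 0.583 RPKM.

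**Figure D3:**
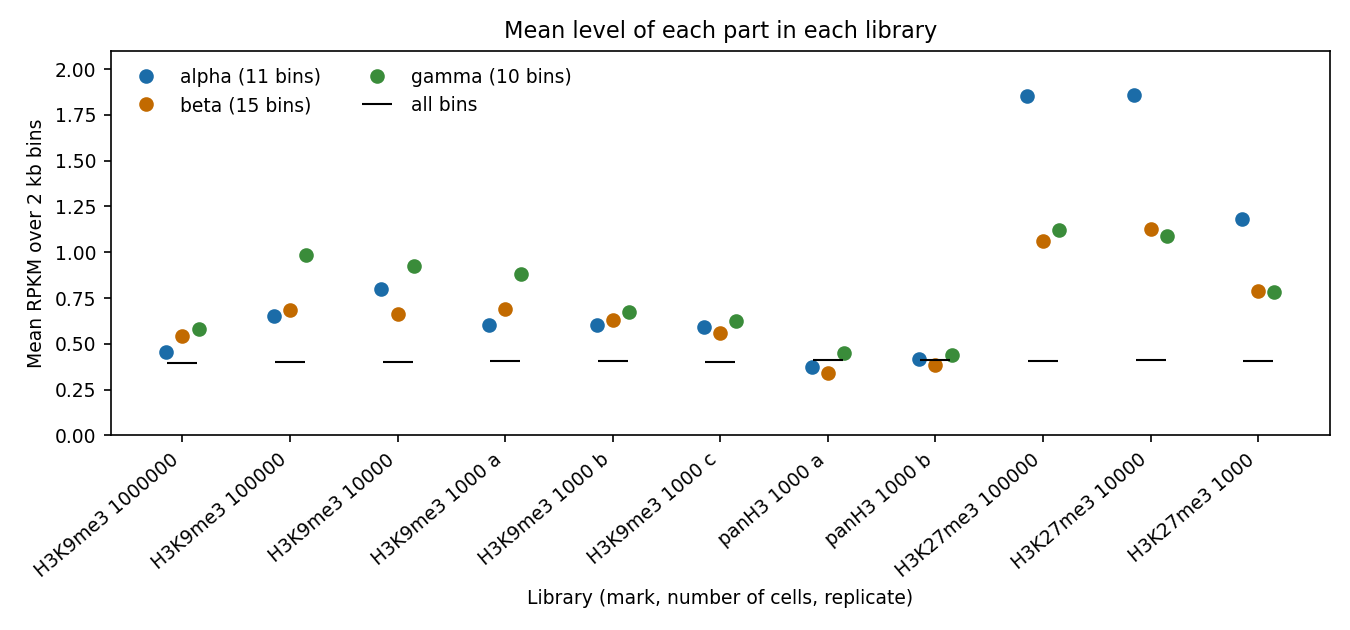
Mean RPKM over the 2 kb bins of the alpha, beta and gamma parts (vertical axis, coloured points) in each library (horizontal axis), with the mean of all bins as a black dash. In all 6 H3K9me3 libraries the gamma point is the highest, with 0.583 to 0.983 RPKM, while in the H3K27me3 libraries the alpha point is the highest at 1.85, 1.86 and 1.18 RPKM. The gamma point is also the highest in both panH3 libraries, at 0.450 and 0.439 RPKM. The beta means include the bins at 37526001 and 37550001, which had little panH3.

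The bins at 37526001 and 37550001 in the beta part and at 37790001 between beta and gamma had little panH3 and H3K27me3. Their panH3 was 0.035, 0.025 and 0.040 RPKM on average (n = 2), and their H3K27me3 at 100000 cells was 0, 0.03 and 0 RPKM. H3K9me3 ranged over the 6 libraries from 0.02 to 0.2 RPKM in the first, from 0 to 0.18 in the second and from 0 to 0.07 in the third. The beta bins at 37526001 and 37550001 enter the beta means above.

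H3K4me3 was low at most members. The table of start-site windows of 1 kb held 46 of 74866 windows under member symbols, of which 45 lay within 600 bases of a member's start and stood for 40 members, 10 in alpha, 21 in beta and 9 in gamma. In 10 of the windows the deposited symbol is Pcdha11 and in 10 others Pcdhgc5, so windows were assigned to members by position. At 100000 cells 6 of 40 members reached 1 RPKM, against 51.7% of all windows and 55.9% of all gene symbols with 1 window each. Medians at 100000, 10000 and 5000 cells were 0.750, 1.88 and 1.35 RPKM for alpha, 0.300, 0 and 0 RPKM for beta and 0.900, 1.88 and 1.08 RPKM for gamma. All windows had 1.08, 1.88 and 1.08 RPKM. With 1 window per gene symbol, as for members, the medians were higher, at 1.39, 3.75 and 2.15 RPKM. One read was worth 0.938 RPKM at 10000 cells and 0.539 RPKM at 5000 cells, so a value of 0 there allows a level of up to 2.81 and 1.62 RPKM (3 reads), and the order of members rests on the library of 100000 cells.

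The highest H3K4me3 was at Pcdhgc3, a C-type member, at 2.65 RPKM (44 reads, exact Poisson 95% interval 1.93 to 3.56, counting error only), with 7.50 and 3.77 RPKM at 10000 and 5000 cells. Pcdhac2 stood at 1.93, 9.38 and 3.23 RPKM in these libraries, and Pcdhga8 at 1.93, 6.56 and 4.31 RPKM. These 3 were the highest members in each library, with Pcdha9 and Pcdhga9 level with Pcdhga8 at 10000 cells. Pcdha9 stood at 1.14 RPKM at 100000 cells, Pcdhgc4 at 1.14 and Pcdhgc5 at 1.02 RPKM. Among alpha members Pcdha1 followed at 0.96 and Pcdha12 at 0.90 RPKM, and Pcdhac1 stood at 0.78 RPKM with no read at 10000 or 5000 cells. The lowest alpha members were Pcdha2, Pcdha3 and Pcdha4 at 0.60 RPKM each, and the lowest gamma members were Pcdhgb6 at 0.42 and Pcdhga11 at 0.54 RPKM.

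None of the 21 beta members reached 1 RPKM of H3K4me3 at 100000 cells. Pcdhb1, the first beta gene along the chromosome, was the highest at 0.90, 2.81 and 2.69 RPKM. Pcdhb17 at 0.54, Pcdhb13 and Pcdhb19 at 0.48 RPKM followed, and Pcdhb10 and Pcdhb12 were the lowest at 0.06 RPKM (1 read each). At 10000 cells 16 of 21 beta members had no read. Taf7, a subunit of the general transcription factor TFIID whose gene lies inside the cluster between the beta and gamma parts, stood at 4.52, 15.94 and 7.0 RPKM in its highest window at 100000 cells. H3K4me3 and H3K27me3 at 100000 cells had a Spearman correlation of 0.11 over the 40 members with a window. Among members, Pcdhac2 was high in both marks at 100000 cells, with 1.93 RPKM of H3K4me3 and 2.61 RPKM of H3K27me3. Pcdhgc3 and Pcdhga8 were high in H3K4me3 for members and, at 100000 cells, low in H3K27me3 for members, at 0.61 and 0.51 RPKM of H3K27me3. At 1000 cells Pcdhgc3 stood at 0.38 RPKM of H3K27me3, but Pcdhga8 at 0.92 RPKM, level with the median member. Against all windows, the H3K4me3 of Pcdhac2 and Pcdhga8 lay only at percentile 60.0 and that of Pcdhgc3 at 66.0. Against all genes, the H3K27me3 of Pcdhgc3 and Pcdhga8 still lay at percentiles 78.8 and 72.3 at 100000 cells, and at 59.8 and 93.4 at 1000 cells.

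**Figure D4:**
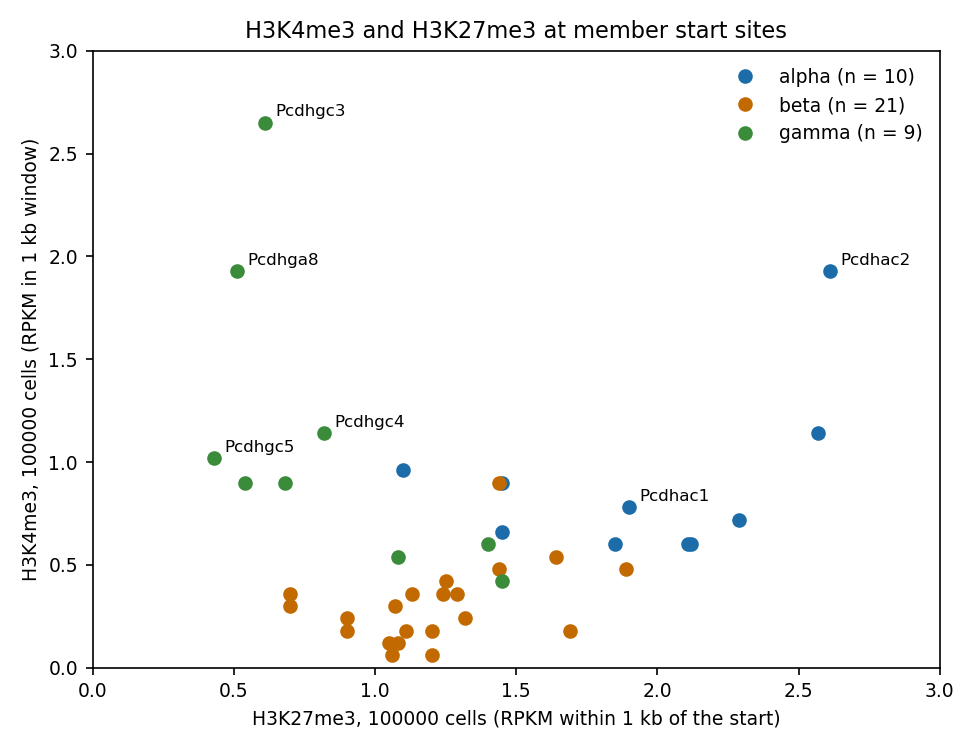
H3K4me3 in the 1 kb start-site window (vertical axis, RPKM) against H3K27me3 within 1 kb of the start (horizontal axis, RPKM), both at 100000 cells, with 1 point for each of the 40 members that have a window. Beta members lie along the bottom at up to 0.90 RPKM of H3K4me3, and Pcdhgc3, Pcdhga8 and Pcdhac2 stand above all others at 1.93 to 2.65 RPKM.

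The listed RNA values also differed between the parts, though on measures that are not alike, as set out below. RNA of at least 1 RPKM was listed for 23 of 59 members, the 22 gamma members and Pcdha4-g, where 49.8% of all genes reached that level. Alpha members were at 0.40 to 0.41 RPKM (Pcdha1 to Pcdha4) or at 0.07 RPKM (the other 10). Beta members ranged from 0 to 0.10 RPKM, with 10 of 22 listed at 0 and the highest values at Pcdhb14 (0.10), Pcdhb17 (0.09) and Pcdhb2 (0.06). Gamma members were at 16.62 to 17.33 RPKM (the first 7) or at 3.31 to 3.75 RPKM (the other 15), and Pcdha4-g at 50.35 RPKM. In a bulk sample, fewer cells that express a gene and less RNA per cell cannot be told apart, and the single RNA library gives no replicate check.

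These values do not measure single members. Among 278 pairs of transcripts in the gene table with the same start and end but exon lengths that differ at least 1.1-fold, 276 had equal reads per 1000000 reads (RPM, which is RPKM times exon length, within rounding) and 0 had equal RPKM. The reads therefore appear to be counted from the start to the end of a transcript and divided by exon length, so that nested alpha and nested gamma members, which share their end, rest on the same reads. A beta gene is a single exon, so its RPKM holds exon reads alone. Alpha and gamma RPKM hold all reads over a much longer stretch, so RPKM cannot be compared directly between beta and the other parts. Pcdha4-g, at 143.8 RPM, exceeded the alpha and gamma parts together, at 80.1 RPM. Adding the beta members (1.33) and the other genes inside the span, Taf7 and Slc25a2 (53.2), gave 135 RPM. The RPKM of Pcdha4-g therefore cannot be read as the level of a joined alpha and gamma transcript. The labels do not say that strand was kept, and Taf7 lies on the minus strand.

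Seen along the chromosome, the nested members showed where their reads began. From Pcdha1 to Pcdha4 the RPM stayed at 2.13 to 2.15, and from Pcdha5 to Pcdhac2 at 0.364 to 0.380. A single step of 1.76 RPM, 82.9% of the total at Pcdha4, thus lay in the 7.75 kb between the starts of Pcdha4 and Pcdha5, and the rest lay behind the start of Pcdhac2. Gamma members showed 1 step as well. From Pcdhga1 to Pcdhga5 the RPM were 77.95 to 77.99, and from Pcdhga6 to Pcdhgc5 they were 16.77 to 16.81. The step of 61.2 RPM, 78.5% of the total at Pcdhga5, lay in the 12.7 kb between the starts of Pcdhga5 and Pcdhga6, and the remaining 16.8 lay in the 22.3 kb from the start of Pcdhgc5 to the end of the part. All other differences between neighbouring members of these parts were within the rounding of the values.

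**Figure D5:**
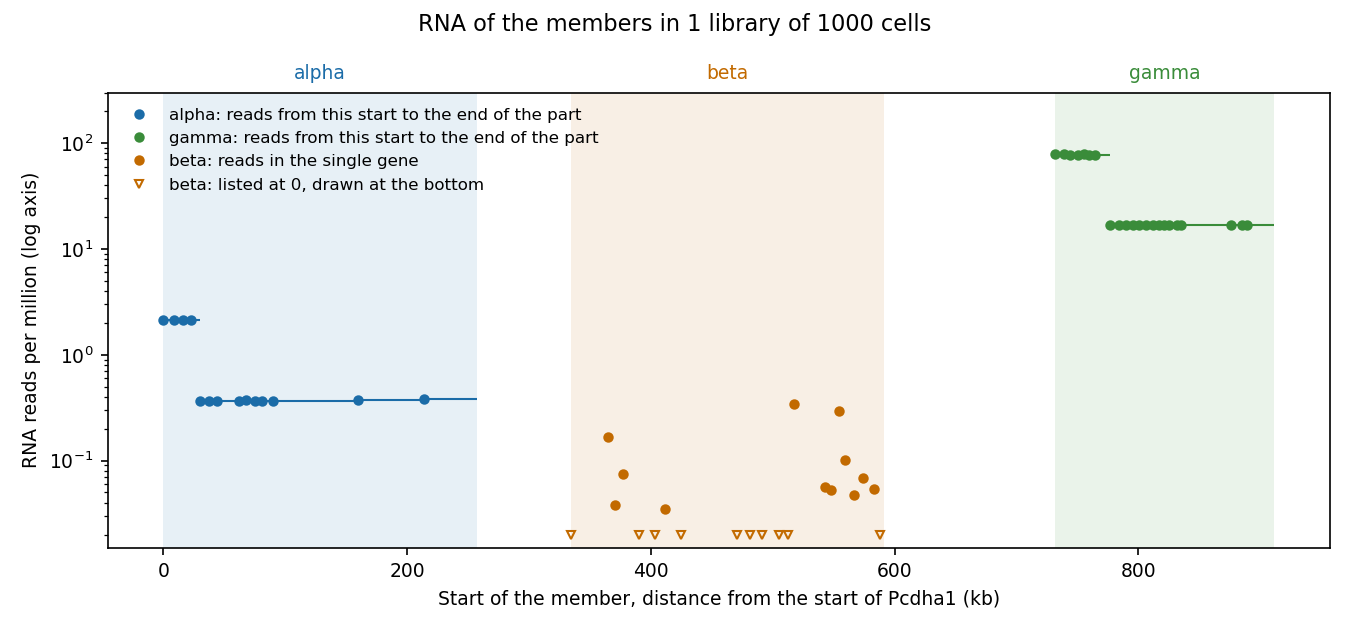
RNA in RPM (vertical axis, log scale) counted from the start of each alpha or gamma member to the end of its part, or within each beta gene, against the distance of the member's start from the start of Pcdha1 in kb (horizontal axis), in the 1 library of 1000 cells. Alpha falls in 1 step from 2.13 to 0.364 and gamma in 1 step from 77.95 to 16.80, and the 10 beta members listed at 0 are drawn as open triangles at the bottom.

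The gamma genes before and after the step could also be set beside their marks. The starts on both sides of the step, Pcdhga5 and Pcdhga6, had 0.89 and 1.5 RPKM of H3K27me3 at 100000 cells, 1.54 and 1.30 RPKM at 10000 cells and 0.92 and 0.66 RPKM at 1000 cells, and neither has a H3K4me3 window. At the alpha step, Pcdha4 and Pcdha5 had 2.11 and 2.26 RPKM of H3K27me3 at 100000 cells, and the bins at 37114001, 37120001 and 37122001, between and just behind these starts, held 3.74, 3.13 and 2.14 RPKM.

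Other genes with a bearing on these members were taken from lists of known regulators and partners. All 24 regulators listed, among them Ctcf (31.30 RPKM), which encodes the protein bound at protocadherin promoters and enhancers, the cohesin subunit Rad21 (44.56 RPKM), Smchd1 (11.60 RPKM), a chromatin protein, Dnmt3b (19.07 RPKM), a DNA methyltransferase, and Setdb1 (16.23 RPKM), a H3K9 methyltransferase, had RNA of at least 1 RPKM, as did 49.8% of all genes. The highest were Cbx1 at 122.90, Trim28 at 118.66, Hells at 67.79 and Rad21. Of the 63 bins that touched these genes, 60 were lower and 1 higher in H3K9me3 than in panH3 (59 and 1 with centred libraries), where 45.6% of all bins that touch a gene were lower and 7.19% higher. At the start sites of the 24 regulators the median H3K27me3 at 100000 cells was 0.145 RPKM. Of 17 genes for proteins that cut or signal from protocadherins, such as Adam10, the presenilins and the kinases Ptk2, Fyn and Ret, 15 had at least 1 RPKM of RNA (49.8% of all genes), led by Ptk2 at 25.04, Abi1 at 24.09, Nckap1 at 20.43 and Abi2 at 19.11 RPKM, and Ret stood at 0.14 RPKM.

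The 12 protocadherin genes outside the cluster had RNA of 0.01 to 0.83 RPKM, with Pcdh1 (0.83) and Pcdh19 (0.27) the highest. Reads appear to be counted over the whole gene and divided by exon length. These values therefore cannot be set directly beside those of the single-exon beta members. Their median H3K27me3 at 100000 cells was 0.615 RPKM, and 3 of the 12 reached 1 RPKM, namely Pcdh8 at 2.45, Pcdh10 at 1.93 and Pcdh7 at 1.32 RPKM. Of 128 bins that touched them, 5 were higher and 10 lower in H3K9me3 than in panH3, beside 7.19% and 45.6% of all bins that touch a gene, a balance that turned to 9 higher and 3 lower with centred libraries. Among the bins that overlap a member of the cluster, 12 of 28 were higher and 1 lower, with 5 of 11 higher in alpha, 1 of 7 in beta and 6 of 10 in gamma, and the difference between the lists was not tested.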

How the data were processed

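Libraries of TT2 cells were analysed, made by ChIP-seq against 3 histone marks and total H3 and by RNA-seq. BWA, SAMtools and the build mm9 are named in the submitters' processing notes; versions, counting tool and read filters were not given in the sources used here. The authors deposited RPKM values, per the file headers, in 2 kb bins, in 1 kb start-site windows (H3K4me3), within 1 kb of start sites (H3K27me3) and over exons (RNA). The panH3 columns carry no unit and were taken as RPKM. A further 2 columns, of another series, were not used. Coordinates of the gene table on this stretch are all multiples of 4 and so appear rounded.

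Groups came from the labels. The value of 1 read, and from it the depth, was estimated from steps in the deposited RPKM values: 98.5% to 100% of low non-zero values in bins and H3K4me3 windows equal a whole multiple of it once rounded to 2 decimals. In the deepest bin libraries these steps take up to 90% of the possible 2-decimal values, so a match says less there; H3K27me3 at start sites is not in such steps (39.8% of low values at 100000 cells lie within 0.0051 RPKM of a whole read), so no read number is given there. H3K9me3 a, b, c and panH3 a, b were compared in 93575 bins above 0 in at least 1 of them with limma 3.58.1 in R 4.3.3 on log2(RPKM + 0.1) (robust, intensity trend, two-sided, threshold 0.05). Simulated bins had these means and an assumed spread between libraries, and only a small share of them was changed. Of the bins changed by 1 log2 unit 14% were called, and of those changed by 2 log2 units 85%, with 0 false calls in 93530 bins. In the data 15.2% of bins were called higher and 24.7% lower, so these rates need not hold there. Parts were compared by exact permutation tests. The letters a and b were not taken as pairs. Over bins, the a minus b differences of H3K9me3 and panH3 had a correlation of -0.0095, but counting error in single bins can hide a shared source. Where a symbol has several rows, the one with the highest mean of the mark stands for it. Named members were the C-type genes and, per part and measure, the 4 highest and 2 lowest; named bins were those past the threshold and the extremes of each part; from the other lists, the 4 highest in RNA and any with H3K27me3 of at least 1 RPKM. Not every gene this rule names is reported, and others, among them Pcdha7, Pcdha8, Ctcf, Smchd1, Dnmt3b, Setdb1 and the neighbours of the steps, were chosen after their values were seen. Members, lists and tests were chosen with earlier results of these data known. Software was scipy 1.17.1, pandas 2.3.3 and numpy 2.4.6 in Python 3.11.15, with matplotlib 3.10.9 for plots. Alternatives covered the pseudocount, centring, filters, a replicate block, voom, the definition of a part and each library left out.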

Additional observations from a re-analysis of the deposited data

How the results depend on the processing

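Of the 21 bins of the span called for H3K9me3 against panH3, 11 kept their call in all 12 refits (10 higher and 1 lower), and no called bin changed sign. The count of higher bins was 12 when only bins that overlap a member gene were taken, and 12 to 21 with 1 library left out. The count of lower bins was 1 with bins overlapping a member gene, centring, no filter on low values or the replicate block, and 1 to 2 with 1 library left out. The replicate block gave 19 higher bins, and no shared source of equal letters is stated. Gamma minus beta was 0.69 with the median over bins, 0.11 with panH3 subtracted, 0.34 in the libraries of 1000 cells alone, 0.18 without bins of panH3 under 0.1 RPKM (chosen after seeing the data) and 0.39 to 0.50 with 1 library left out. Gamma minus alpha was 0.39, 0.11, 0.17, 0.25 and 0.20 to 0.30 under the same settings. Beta minus alpha turned to 0.0175 at start-site bins, to 0.0754 without the low panH3 bins and to 0.0408 as the log2 ratio of mean RPKM over bins (added after seeing the data), where the other 2 pairs were called as before. With 5 libraries, or with those of 1000 cells alone, the smallest exact p is above 0.05, and the cause of the other losses was not tested.

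Means over members in place of medians, at 100000 cells, were 1.72, 1.25 and 0.958 RPKM of H3K27me3 for alpha, beta and gamma, 0.889, 0.306 and 1.12 RPKM of H3K4me3, and 0.166, 0.0177 and 7.88 RPKM of RNA. The median over bins of H3K27me3 was 1.25, 1.27 and 1.11 RPKM, so that the alpha bins no longer stood above the beta bins. RPM above the lowest member of the part had medians of 0.00483 for alpha and 0.0325 for gamma, both within the rounding of a difference between members, so they do not rank the parts. Depth limits H3K4me3 at 10000 and 5000 cells, where most beta members have no read, and groups of 1 library have no replicate check.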
